A study of Mus musculus with 8 samples.

Results

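The genes described here are the 80 cytosolic ribosomal protein genes among the 32285 rows of a mouse single-cell count table. They were taken by name: Rps or Rpl with a number and, in some, a closing a, x or l, plus Rpsa, Rplp0, Rplp1 and Rplp2. Of the 80 members, 31 belong to the small (40S) subunit and 49 to the large (60S) subunit, and no measured value entered the choice. Together they gave 17473851 of the 102058316 unique molecular identifiers (UMIs, each standing for 1 captured transcript), or 17.1%. With all cells pooled, 79 members passed the filter on low counts, and in CD4 T cells, CD8 T cells, NK cells and macrophages 77 passed.

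The cells were CD45+ immune cells sorted from grafts of NIT-1, a beta cell line from a NOD mouse insulinoma, that were either wild type (WT) or carried a mutation of Renalase (Rnls). In the study's transfer model, WT and Rnls mutant NIT-1 cells were placed under the skin of opposite flanks of a mouse. Splenocytes of diabetic NOD mice were transferred afterwards into the vein. The paper names NOD mice as hosts where it introduces the single-cell work, and immunodeficient NOD.scid mice for other transfers of this kind. Grafts were taken at day 10 or day 17, which gives WT day 10, Rnls mutant day 10, WT day 17 and Rnls mutant day 17, with 4 grafts each and 16 in all. The mutation was in the grafted beta cells and not in the immune cells that were sequenced, and hosts of either strain keep their own myeloid and NK cells. Rnls itself was not analysed here, so the genotype labels were not checked against the targeted gene. Both flanks of a mouse were used, and the study describes its single-cell comparison of the genotypes as 4 paired replicates. The labels do not say which grafts share a mouse. The tests therefore treat the 16 grafts as independent and leave that pairing out. Each group was 1 droplet library whose 4 grafts carried different hashtag antibodies, so genotype or day and library cannot be told apart in any comparison below.

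The table holds 22441 cells in 12 annotated types and 29 clusters. Libraries held 2690 (WT day 17) to 7617 (WT day 10) cells, with a median of 3083 to 5902 UMIs per cell and 1742746 to 9729233 UMIs per graft, and 42 cell barcodes occurred in more than 1 library. Levels are given as CPM, the UMIs of a gene per 1000000 UMIs of the graft or of the type in the graft. Most defining markers were highest in the type they define, among them Cd4, Cd8b1, Foxp3, Eomes, C1qa, Ly6c2 and Flt3. The exceptions were Cd3e and Trac, which were highest in Treg, Ncr1, which was higher in ILC-1 than in NK cells, Zbtb46, which was higher in NK cells than in DC, Ccr2, which was highest in Treg, and Cxcr6, Il7r and Tmem176b, which were higher in other types than in ILC-1. The cells named Stem-Progenitor had the highest Mki67 and Top2a. Insulin and other beta cell genes summed to at most 3.22 CPM in any graft, fibroblast genes to at most 28.1 and endothelial genes to 20.4 to 142, and mitochondrial genes took a group mean of 1.03% to 1.31% of the UMIs. The part of these in the results was not tested.

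Cytosolic ribosomal proteins are assembled with ribosomal RNA into the subunits that translate mRNA, most of them in equal numbers, and their mRNAs are among the most abundant in any cell. Many of these mRNAs begin with a run of pyrimidines (a TOP motif), through which mTORC1 signaling adjusts their translation to nutrients and growth factors. Lymphocytes build ribosomes in large numbers when they are activated and divide, and resting or terminally differentiated myeloid cells such as neutrophils carry few.

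The promoters that follow are shown because these members carry the day comparisons below and differ in the 2 motifs that are common in this gene family. Each window runs from 40 bases before to 20 bases after the RefSeq start (assembly GRCm38.p6), is written on the gene's own strand, and has matches to CTCTTT on that strand or to CTTCCG on either strand in capitals. Rpl35 lies at chr2:39005112-39005171 (minus strand), Rpl38 at chr11:114668540-114668599 (plus), Rpl18 at chr7:45718031-45718090 (plus) and Rplp0 at chr5:115559427-115559486 (plus).
Rpl35: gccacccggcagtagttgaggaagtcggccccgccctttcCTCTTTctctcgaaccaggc
Rpl38: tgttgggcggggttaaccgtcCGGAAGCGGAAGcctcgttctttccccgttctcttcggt
Rpl18: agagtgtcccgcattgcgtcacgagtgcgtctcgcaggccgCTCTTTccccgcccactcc
Rplp0: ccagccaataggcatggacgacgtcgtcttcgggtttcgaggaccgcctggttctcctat
Rpl35 and Rpl18 hold CTCTTT at or just after the start, Rpl38 holds 2 adjoining copies of the ETS core CTTCCG read on the other strand, and Rplp0 holds neither set of letters in this window. In the whole windows of 300 bases, 60 of the 80 members matched an entry, and CTCTTT on the gene's own strand occurred in 38.3% of the members and 13.7% of 27025 genes. CTTCCG on either strand occurred in 68.3% of the members and 18.8% of genes. TATAAA on the gene's own strand occurred in 8.33% of the members and 9.77% of genes.

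The second sequence bears on a row of the table that is not a ribosomal protein gene but carries the sequence of one. Rpl41, the smallest ribosomal protein with 25 residues, has a coding sequence of 78 bases, shown with its start and stop codon in capitals as GENCODE M21 gives it (GRCm38).
Rpl41: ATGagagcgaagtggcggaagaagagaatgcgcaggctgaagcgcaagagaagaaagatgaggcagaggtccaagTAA
The same 78 bases stand, without a mismatch, from base 42 of Gm10076, a lincRNA gene of 384 bases at chr14:105681828-105682211 (plus strand). Over 383 aligned bases Rpl41 and Gm10076 were 99.478% identical, with the substitutions C127T and G234A, counted from the 5′ end of Gm10076 with the base of Rpl41 first. Reads of such a pair can be split or dropped in counting, so the values of both are uncertain. The same holds for 8 other members with a near-identical row in the table (98% or more over at least 200 bases): Rpl10 (Rpl10-ps3), Rpl21 (BC004004), Rpl35 (Gm2000), Rpl36a (Rpl36a-ps1), Rpl9 (Rpl9-ps6), Rplp2 (Wdr89), Rps18 (Gm10260, Gm11361) and Rps27 (Rps27rt).

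Ribosomal protein mRNA took the largest share of UMIs in CD4 T cells, Stem-Progenitor cells and CD8 T cells and the smallest in granulocytes. The mean percent over grafts with at least 10 cells of a type was 22.4% ± 1.72 in CD4 T cells (SD, n = 16), 22.2% ± 1.96 in Stem-Progenitor cells (n = 12) and 21.8% ± 1.40 in CD8 T cells (n = 16), which did not differ beyond their spread. NK cells followed with 19.6% ± 2.21 (n = 16), ILC-1 with 19.3% ± 5.99 (n = 8) and DC with 19.2% ± 1.80 (n = 16), also within their spread of each other. The ILC-1 mean joins day 10 grafts at 21.3% to 29.3% with day 17 grafts at 13.2% to 15.9%, so its rank among the types depends on the day. Treg held 16.5% ± 1.64 (n = 14), monocytes 14.0% ± 1.41 (n = 15), macrophages 12.4% ± 0.733 (n = 16) and granulocytes 2.85% ± 1.01 (n = 12). Granulocytes therefore stood apart from every other type with such grafts, since their highest graft reached 5.50% and the lowest macrophage graft 10.9%. They also had the fewest UMIs, with a median of 1319 per cell. B cells and mast cells, with 35 and 13 cells, reached 10 cells in no graft. Over single cells their median percents were 20.1% and 6.64%, so mast cells lay between granulocytes and macrophages. These levels are a description with no test, since the types were made from the same cells and genes.

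**Figure D1:**
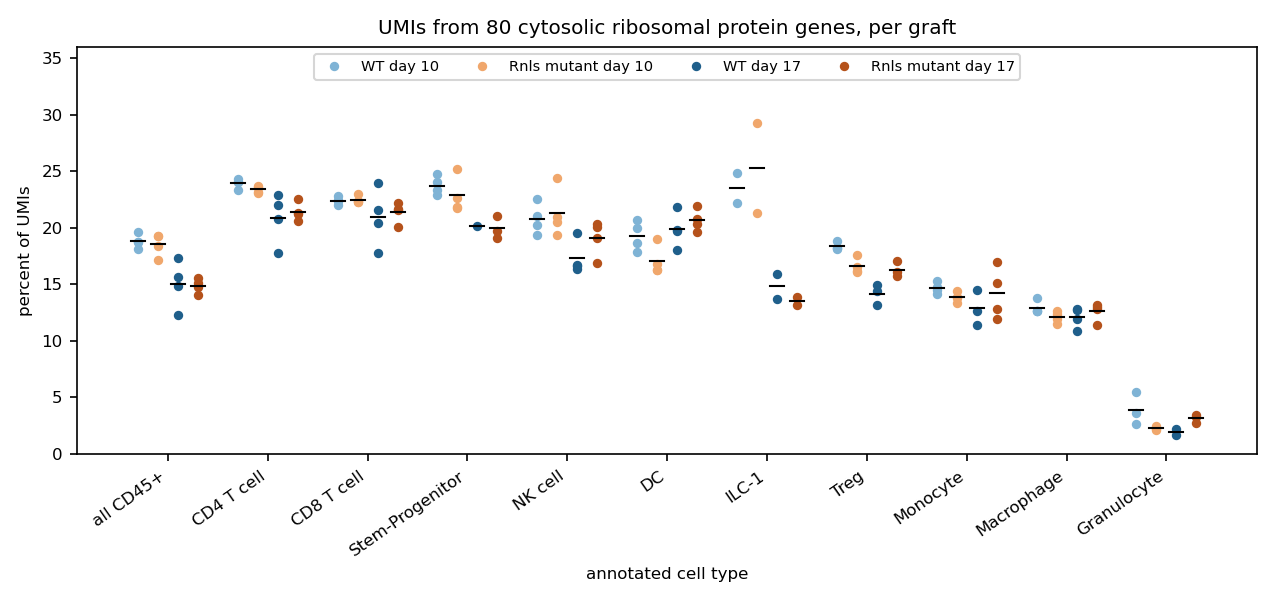
Percent of UMIs from the 80 cytosolic ribosomal protein genes (vertical axis) in all CD45+ cells and in 10 annotated types (horizontal axis). Each point is 1 graft with at least 10 cells of the type, colors mark the 4 groups and black bars their means. In all CD45+ cells the day 17 grafts lie between 12.2% and 17.3% and the day 10 grafts between 17.2% and 19.7%, while DC of Rnls mutant grafts are higher at day 17.

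Single members followed the same order in part only. Over CD4 T cells, CD8 T cells, NK cells, macrophages, monocytes, DC and Treg, the highest type exceeded the lowest by a median of 1.93 times over 77 members. Macrophages were the lowest type for 58 of them and CD4 T cells the highest for 41. The member that differed most was Rps27l, a paralog of Rps27 that p53 induces, with 840 ± 299 CPM in DC and 199 ± 40.8 in CD8 T cells, a ratio of 4.22. Rpl13a, which interferon-gamma signaling releases from the ribosome in myeloid cells, came next with 1970 CPM in CD8 T cells and 567 in macrophages (3.47), followed by Rpl21 with 2254 in CD4 T cells and 739 in macrophages (3.05). The members that differed least were Rpl7a (1.47), Rps9 (1.48) and Rps27a (1.49), which is made as a fusion with ubiquitin. Rps9 and Rps27a were highest in DC and lowest in Treg.

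The tissue-restricted members were close to the limit of detection. Rpl3l, the paralog of Rpl3 found in striated muscle, had 280 UMIs in all cells, of which 121 were in macrophages, 100 in monocytes, 38 in DC and 17 in granulocytes, and 0 in CD8 T cells and NK cells. Rpl39l, known from testis, had 138 UMIs. Rpl10l, also known from testis, had 15 and was the member that was not tested. Neither Rpl3l nor Rpl39l passed a test in all CD45+ cells.

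At day 17, ribosomal protein mRNA took a smaller share than at day 10 in grafts of both genotypes. The WT grafts 1 to 4 held 18.1%, 19.7%, 18.8% and 18.8% at day 10 and 15.7%, 17.3%, 12.2% and 14.9% at day 17. The Rnls mutant grafts held 18.4%, 17.2%, 19.3% and 19.3% at day 10 and 15.6%, 15.1%, 14.0% and 14.7% at day 17. Within each genotype the days did not overlap, and WT day 17 graft 3 was the lowest of all 16 grafts. The difference of the means, day 17 minus day 10, was -3.81 percentage points in WT grafts (15.0% ± 2.11 against 18.8% ± 0.631, SD, n = 4) and -3.67 in Rnls mutant grafts (14.9% ± 0.640 against 18.5% ± 1.00). Without WT day 17 graft 3 the WT difference was -2.89 percentage points. The share in pooled cells reflects both the mix of types and the share within each type. In WT grafts, macrophages (12.4% on average) numbered 218 to 483 per graft among 1865 to 1967 cells at day 10. At day 17 they were 107 to 885 among 350 to 1112. In Rnls mutant grafts they were 121 to 448 among 1516 to 1839 cells, then 315 to 1178 among 546 to 1932. How much of the pooled difference came from this mix was not tested. With CD4 T cells, CD8 T cells, NK cells and macrophages weighted equally, the differences were -2.22 and -1.20 percentage points.

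Within types the share differed by day in both directions. In CD4 T cells it was lower at day 17 without overlap, with differences of -3.08 percentage points in WT and -1.97 in Rnls mutant grafts. In NK cells the means were 20.8% and 17.3% in WT and 21.3% and 19.1% in Rnls mutant grafts, and both pairs overlapped. In macrophages the days overlapped in both genotypes, at 12.9% and 12.1% in WT and 12.1% and 12.6% in Rnls mutant grafts. Treg of WT grafts went from 18.3% ± 0.347 (n = 4) to 14.2% ± 0.913 (n = 3) with no overlap, and Treg of Rnls mutant grafts were at 16.6% and 16.3%. DC of Rnls mutant grafts had 17.1% ± 1.30 at day 10 and 20.7% ± 0.972 at day 17, again without overlap but in the opposite direction. ILC-1, with n = 2 in each group, had means of 23.5% at day 10 and 14.8% at day 17 in WT grafts. In Rnls mutant grafts the ILC-1 means were 25.3% and 13.5%, and the days did not overlap in either genotype. The leading cluster of CD4 T cells and of macrophages differed between the days, whereas NK cells formed a single cluster. In macrophages at day 17 it also differed between the genotypes, with 30.1% of the WT cells in cluster 5 and 38.1% of the Rnls mutant cells in cluster 2.

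Most members fell between day 10 and day 17 when all CD45+ cells were pooled. In WT grafts 67 of 79 tested members were lower and 0 were higher by edgeR's quasi-likelihood test (Benjamini-Hochberg adjusted p under 0.05 over 12560 genes), against 17.5% of all genes called lower. In Rnls mutant grafts 62 were lower and 2 higher, against 22.4% and 24.3% of all genes. The median log2 fold change of the members was -0.42 and -0.40, with medians of 0.05 and -0.01 over all genes tested. The tested members had a median of 223049 UMIs and all tested genes 1864.5, so a change of a given size was called more readily among the members. The large subunit had 43 of 48 members lower in WT and 41 in Rnls mutant grafts, and the small subunit 24 and 21 of 31, with medians of -0.45 and -0.39 in WT grafts.

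Of the large-subunit proteins, Rpl35, which lies near the exit of the nascent chain, had 2270, 2346, 2257 and 2313 CPM in WT grafts 1 to 4 at day 10 and 1157, 1325, 1016 and 1265 at day 17. The groups were far apart, and Rpl35 fell by 1.05 on the log2 scale (SE 0.0896, adjusted p = 2.16e-06). Rpl24, of the bridge between the subunits, had 3330, 3414, 3161 and 3209 CPM in WT grafts at day 10 and 2133, 1969, 1619 and 1954 at day 17. It fell by 0.88 in WT grafts (adjusted p = 3.06e-06) and by 0.53 in Rnls mutant grafts (7.1e-05), where the means were 3135 ± 55.4 and 2202 ± 89.7. Rpl38, known for its part in the translation of Hox mRNAs, fell by 0.70 in WT grafts, from 3693 ± 76.1 to 2452 ± 402 CPM. Rpl6, an RNA-binding protein of the same subunit, had WT means of 3031 ± 103 and 1909 ± 294 and fell by 0.77.

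Rplp0, the base of the stalk that recruits elongation factors, had 3051, 2724, 3211 and 3299 CPM in Rnls mutant grafts at day 10 and 1808, 1641, 1661 and 1510 at day 17. These groups did not overlap, and Rplp0 fell by 0.91 (SE 0.107, adjusted p = 1.11e-05). In WT grafts Rplp0 fell by 0.60 (adjusted p = 0.000486). Among other large-subunit members in Rnls mutant grafts, Rpl18 fell by 0.66, Rpl15 by 0.56 and Rpl7a by 0.42 (adjusted p = 0.000127, 9.25e-05 and 0.000731).

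The 2 members that rose in Rnls mutant grafts belong to the small subunit. Rps29, a small zinc-binding protein, had 6070, 6249, 6002 and 6314 CPM at day 10 and 8620, 8890, 7693 and 8917 at day 17 and rose by 0.45 (SE 0.0795, adjusted p = 0.000288). In WT grafts the same gene had 7769, 7827, 8039 and 8256 at day 10 and 6173, 7074, 5940 and 6442 at day 17, and fell by 0.42 (adjusted p = 0.000851). Neither pair of groups overlapped. Rps9, which is involved in decoding accuracy, had 2523, 2469, 2506 and 2609 in Rnls mutant grafts at day 10 and 3280, 3221, 2829 and 2953 at day 17, and rose by 0.27 (adjusted p = 0.0177). Its call was lost without Rnls mutant day 17 graft 1 (0.23) or graft 2 (0.23), with the UMIs outside the members as library totals (0.22) and without the filter on low counts (0.25).

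**Figure D2:**
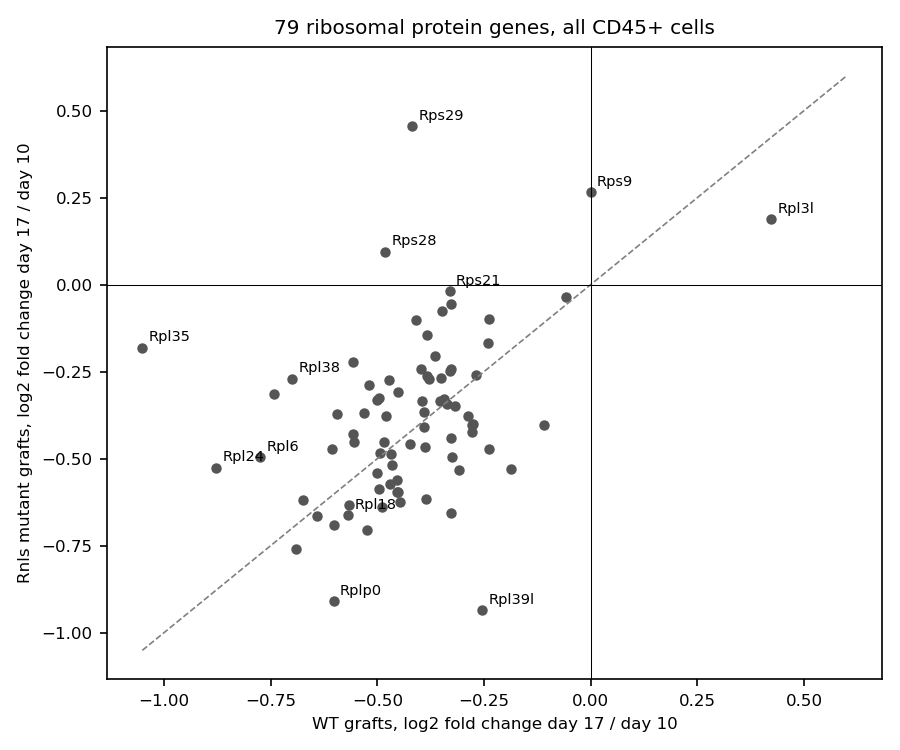
Log2 fold change from day 10 to day 17 in WT grafts (horizontal axis) and Rnls mutant grafts (vertical axis) for the 79 tested ribosomal protein genes in all CD45+ cells. Each point is 1 gene and the dashed line marks equal values. Most points lie below 0 on both axes, while Rps29 is at -0.42 and 0.45, Rpl35 at -1.05 and -0.18 and Rplp0 at -0.60 and -0.91.

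In CD4 T cells, CD8 T cells, NK cells and macrophages, most members called between the days with TMM scaling were lower at day 17. In CD4 T cells 58 of 77 fell in WT and 34 in Rnls mutant grafts, with 10.1% and 10.4% of all genes lower. In CD8 T cells 26 and 12 of 77 fell (6.32% and 4.56% of all genes), in NK cells 18 and 1 (4.87% and 1.2%), and in macrophages 18 and 16 (13.1% and 21.4%). In NK cells and macrophages of Rnls mutant grafts, members were thus called lower about as often as all genes. The member of NK cells in Rnls mutant grafts was Rplp0, which fell by 0.50 with an adjusted p of 0.0498. No member rose in any of the 4 types, apart from Rps29 (0.36), Rps9 (0.57) and Rps21 (0.29) in macrophages of Rnls mutant grafts, where 20.7% of all genes were higher.

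These counts in types depended on the scaling. With library totals in place of TMM, the median log2 fold change of all genes between the days in WT grafts moved from 0.03 to 0.20 in CD4 T cells, 0.02 to 0.17 in CD8 T cells, 0.05 to 0.16 in NK cells, 0.03 to 0.21 in macrophages and 0.05 to 0.15 in all CD45+ cells. In macrophages of Rnls mutant grafts it moved from 0.02 to 0.15. The split of higher and lower members in macrophages was then 9 and 4 in Rnls mutant grafts and 1 and 6 in WT grafts. In CD8 T cells it was 2 and 14 in WT and 1 and 4 in Rnls mutant grafts. In CD4 T cells of WT grafts 29 members were lower and 0 higher with library totals, and in all CD45+ cells 52 and 0. The shares of all genes called higher or lower with library totals are not given here.

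A set of 7 members fell in WT grafts in CD4 T cells, CD8 T cells, NK cells and macrophages alike: Rpl35, Rpl24, Rpl6, Rpl38, Rpl37, Rps29 and Rps28. Rpl37 and Rps28 are named after their values were seen. The count was 4 with library totals, 11 with DESeq2 and 12 without WT day 17 graft 4. The values of Rpl24 were -0.89, -0.91, -0.88 and -0.77 in that order, and those of Rpl35 were -1.14, -0.96, -0.83 and -0.89. In Rnls mutant grafts Rplp0 fell in all 4 types, at -0.59, -0.56, -0.50 and -0.51. The count of 1 member called in all 4 types became 0 when any day 10 graft or any Rnls mutant day 17 graft was left out. Over the 7 types with values, 24 of 77 members were below 0 in every type in WT grafts and 0 above. In Rnls mutant grafts 4 were below 0 in every type and 2 above, namely Rps29 and Rps21. Neither these counts by sign nor those called in all 4 types were set against the same counts over all genes.

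In DC and Treg the counts of members called between the days differed between the genotypes. Such counts do not test that difference. The interaction, the test of whether the day change differed between the genotypes, called 0 of 77 members and 2 of 5700 genes in DC. In Treg it called 8 of 77 members and 26 of 2331 genes. In DC of WT grafts 1 member, Rpl9, was higher at day 17 (5.39% of all genes) and 3 were lower (4.77%), namely Rpl35, Rpl31 and Rps27l. In DC of Rnls mutant grafts 20 members were higher at day 17 and 1 lower, where 7.53% of all genes were higher and 7.04% lower. Among them Rps29 rose by 0.66, Rps28 by 0.65, Rps21 by 0.61 and Rps9 by 0.47. In Treg of WT grafts 40 members were lower, with 4.55% of all genes lower, among them Rpl35 (-1.37), Rpl24 (-0.99) and Rps29 (-0.85). In Treg of Rnls mutant grafts 1 was lower, Rpl24 (-0.60), with 3.43% of all genes lower. The members named in DC and Treg were chosen after their values were seen. Treg had 14 to 82 cells per graft and DC 12 to 147, and whether the day change differed between types was not tested.

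Between the genotypes, the share of ribosomal protein mRNA differed by less than the spread of the grafts at each day. The difference, Rnls mutant minus WT, was -0.301 percentage points at day 10 and -0.161 at day 17, and the groups overlapped at both days. In macrophages the Rnls mutant grafts were lower at day 10 without overlap (12.1% ± 0.503 against 12.9% ± 0.551) and overlapped with WT at day 17, when different clusters led. In Treg the difference was -1.74 percentage points at day 10 and 2.14 at day 17, without overlap at either day. In all CD45+ cells 0 of 79 members passed the edgeR test of genotype at day 10 and 0 at day 17, where 0.0796% and 0.0159% of all genes did. At an unadjusted p under 0.05 there were 6 and 11 of 79 members, and 888 and 1033 of 12560 genes. DESeq2 called 3 at each day: Rps29 and Rpl35 at both, Rps28 at day 10 and Rpl24 at day 17. The shares of all genes that DESeq2 called are not given here, so its counts of members, also those below, stand without that background.

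Rps29 and Rpl35 had genotype differences of opposite sign at the 2 days, and the interaction with day was called for both in all CD45+ cells. Rps29 in all CD45+ cells was lower in Rnls mutant grafts at day 10 (6159 ± 147 against 7973 ± 222 CPM) and higher at day 17 (8530 ± 574 against 6407 ± 490), with no overlap at either day. The log2 fold changes were -0.40 and 0.47 (adjusted p = 0.0847 and 0.0708). The interaction of genotype and day, which asks whether the genotype difference differed between the days, was 0.87 ± 0.112 (SE) with an adjusted p of 0.00274. Rpl35 had 1808, 1585, 1705 and 1734 CPM in Rnls mutant grafts at day 10, below all WT grafts, and 1642, 1567, 1377 and 1507 at day 17, above all WT grafts. Its log2 fold changes were -0.46 and 0.41 (adjusted p = 0.0847 and 0.252), and its interaction was 0.87 ± 0.126 (adjusted p = 0.00563). These were the only members with a called interaction in all CD45+ cells, where 0.143% of all genes had one. DESeq2 added Rps28 and Rpl24.

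The genotype and day comparisons use the same 4 libraries in different pairs, so their values for a gene are not independent of each other. Rps28, named after its values were seen, had 3940 ± 145 and 3316 ± 77.4 CPM in WT and Rnls mutant grafts at day 10, and 3035 ± 347 and 3581 ± 219 at day 17. Its interaction of 0.58 in all CD45+ cells did not pass (adjusted p = 0.0715). As a share of the ribosomal protein UMIs alone, which leaves out all other genes, Rps29 made up 4.24% and 3.33% at day 10 and 4.30% and 5.74% at day 17 in WT and Rnls mutant grafts, and Rpl35 1.22% and 0.922%, then 0.796% and 1.02%. The order of the genotypes was thus the same when members were set against each other.

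In CD4 T cells Rpl35 was lower in Rnls mutant grafts at day 10 (-0.50, adjusted p = 0.00488) and higher at day 17 (0.42, adjusted p = 0.0315). It was the only member called at either day, with 0.229% and 0.433% of all genes called. With library totals or totals outside the members, 1 member was still lower at day 10, but 0 were higher at day 17. In CD8 T cells 0 members were called at day 10, where DESeq2 called Rpl35. At an unadjusted p under 0.05 there were 6 of 77 members and 532 of 6379 genes. At day 17 Rpl35 (0.52) and Rps29 (0.47) were higher, and 0.314% and 0.376% of all genes were called at these days. With library totals 1 member was higher in CD8 T cells at day 17, and with totals outside the members 0 were. In NK cells Rps29 was higher at day 17 (0.57, adjusted p = 0.0146), where 0.184% of all genes were called. The count of higher members in NK cells was 1 with either of these totals as well. At day 10 0 members and 0.0306% of genes were called in NK cells, and DESeq2 called 0 members. There, 5 of 77 members and 160 of 3263 genes had an unadjusted p under 0.05. In macrophages 0 members were called at both days, against 0.0322% and 0% of all genes, and DESeq2 called 1 and 5 members. An unadjusted p under 0.05 was found for 7 and 12 of 77 members, and for 659 and 573 of 9331 genes.

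The interaction was called for Rps29 in CD4 T cells (0.79), CD8 T cells (0.84) and NK cells (0.86), for Rpl35 in CD4 T cells (0.92) and CD8 T cells (0.91), and for Rps28 in CD4 T cells (0.61). The shares of all genes with a called interaction were 0.636%, 0.658% and 0.398% in these types. With library totals or totals outside the members, 2, 2 and 1 members were called in these types, and 1 in macrophages. In macrophages, where 0.0322% of genes were called, 0 members passed and DESeq2 called 5. An unadjusted p under 0.05 was found for 13 of 77 members and 873 of 9331 genes. The values of macrophages were nonetheless close to those of the T cells, at 0.81 for Rps29 and 0.91 for Rpl35 (adjusted p = 0.116 and 0.0609). Treg had 2 members called at day 10, Rpl35 (-0.77) and Rps29 (-0.50), and 8 with a called interaction, at shares of 0.172% and 1.12% of all genes.

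**Figure D3:**
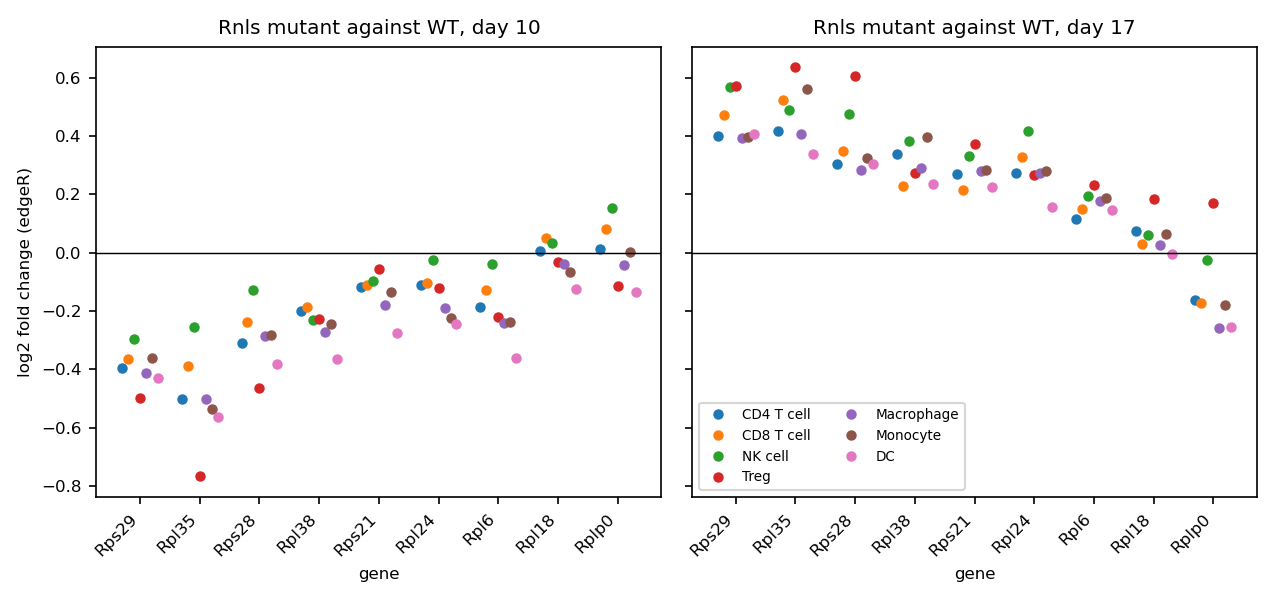
Log2 fold change of Rnls mutant against WT grafts at day 10 (left) and day 17 (right) for 9 ribosomal protein genes (horizontal axis), with 1 colored point for each of 7 annotated types. Rps29, Rpl35, Rps28 and Rpl38 lie below 0 in all 7 types at day 10 and above 0 in all 7 at day 17, whereas Rpl18 and Rplp0 lie on both sides of 0 at day 10.

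Members that shifted alike in the 7 types were counted by sign, as a description, and those named from these counts were chosen after their values were seen. The counts used TMM scaling and were not set against the same counts over all genes. With library totals the members' median interaction was -0.07 in all CD45+ cells and -0.05 in CD8 T cells, against 0.02 in both with TMM. The median over all genes moved as well, to -0.09 and -0.07 with library totals from -0.009 and 0.003 with TMM. The members' median stayed above 0 in CD4 T cells (0.03), NK cells (0.04) and macrophages (0.06), where the medians over all genes were -0.09, -0.10 and -0.05. At day 10, 22 of 77 members were below 0 in Rnls mutant grafts in every type and 1, Rpl7a, was above. At day 17, 26 were above 0 in every type and 2 below, Rpl9 and Rpl10. For the interaction, 40 were above 0 in every type and 1 below, Rpl9. Rpl35 ranged from 0.74 in NK cells to 1.40 in Treg, Rps29 from 0.76 to 1.07, Rps28 from 0.57 to 1.07 and Rpl38 from 0.41 to 0.64. Between the 21 pairs of types, the log2 fold changes of the 77 members had a median correlation of 0.746 at day 10, 0.619 at day 17 and 0.787 for the interaction. For the day comparisons it was 0.699 in WT and 0.531 in Rnls mutant grafts. The types of a graft share its library, droplet run and sequencing, and the correlations are across genes, which are not independent replicates.

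The same held at the level of clusters. At day 10 Rps29 was lower in Rnls mutant grafts in 20 of 21 clusters, and Rpl35, Rps28 and Rpl38 in 21 of 21. At day 17 Rps29, Rpl35 and Rpl38 were higher in 15 of 15 clusters and Rps28 in 14 of 15. The clusters divide the same cells of the same libraries, so these counts have no test and add no independent support to the values by type.

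Gm10076, the row with the Rpl41 sequence shown above, differed by genotype at both days in all CD45+ cells, where no member was called. It had 637, 654, 628 and 647 CPM in WT grafts and 388, 339, 367 and 384 in Rnls mutant grafts at day 10, and 174, 188, 152 and 175 against 260, 242, 227 and 227 at day 17. The genotypes did not overlap at either day, with log2 fold changes of -0.83 (adjusted p = 8.49e-05) and 0.53 (0.0309). Between the days Gm10076 fell by 2.00 in WT and by 0.64 in Rnls mutant grafts. Its interaction was 1.36 ± 0.111 (SE, adjusted p = 2.15e-05) and was called in all CD45+ cells and in CD4 T cells (1.40), CD8 T cells (1.42), NK cells (1.66) and macrophages (1.46). Rpl41 itself had means of 5317 and 4998 CPM at day 10 and 3879 and 3758 at day 17 in WT and Rnls mutant grafts, and its log2 fold changes by genotype were -0.12 and 0.01 (adjusted p = 0.82 and 1.00).

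Other rows near-identical to a member did so in part. Gm10260, which carries Rps18 sequence and is named after its values were seen, was lower in Rnls mutant grafts at day 10 in CD4 T cells (-0.59, adjusted p = 0.025) and CD8 T cells (-0.60, 0.0114), while Rps18 was at 0.09 and 0.11 there. Gm2000, the near copy of Rpl35, had log2 fold changes by genotype of -0.07 and -0.26 in all CD45+ cells, without the reversal of Rpl35. Of the transcripts that are no ribosomal protein genes, mt-Atp8, a short mitochondrial mRNA listed among the signs of RNA quality, had means of 294 and 173 CPM at day 10 and 144 and 156 at day 17 in WT and Rnls mutant grafts, with an interaction of 0.97 (adjusted p = 0.000453). It was called by genotype at day 10 (-0.79) but not at day 17 (0.18, adjusted p = 0.581), where the groups overlapped. Malat1, a nuclear long noncoding RNA named after its values were seen, had means of 24259 and 20881 CPM at day 10, without overlap, and 21001 and 24598 at day 17, with overlap. The part of library preparation in these shifts was not tested.

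**Figure D4:**
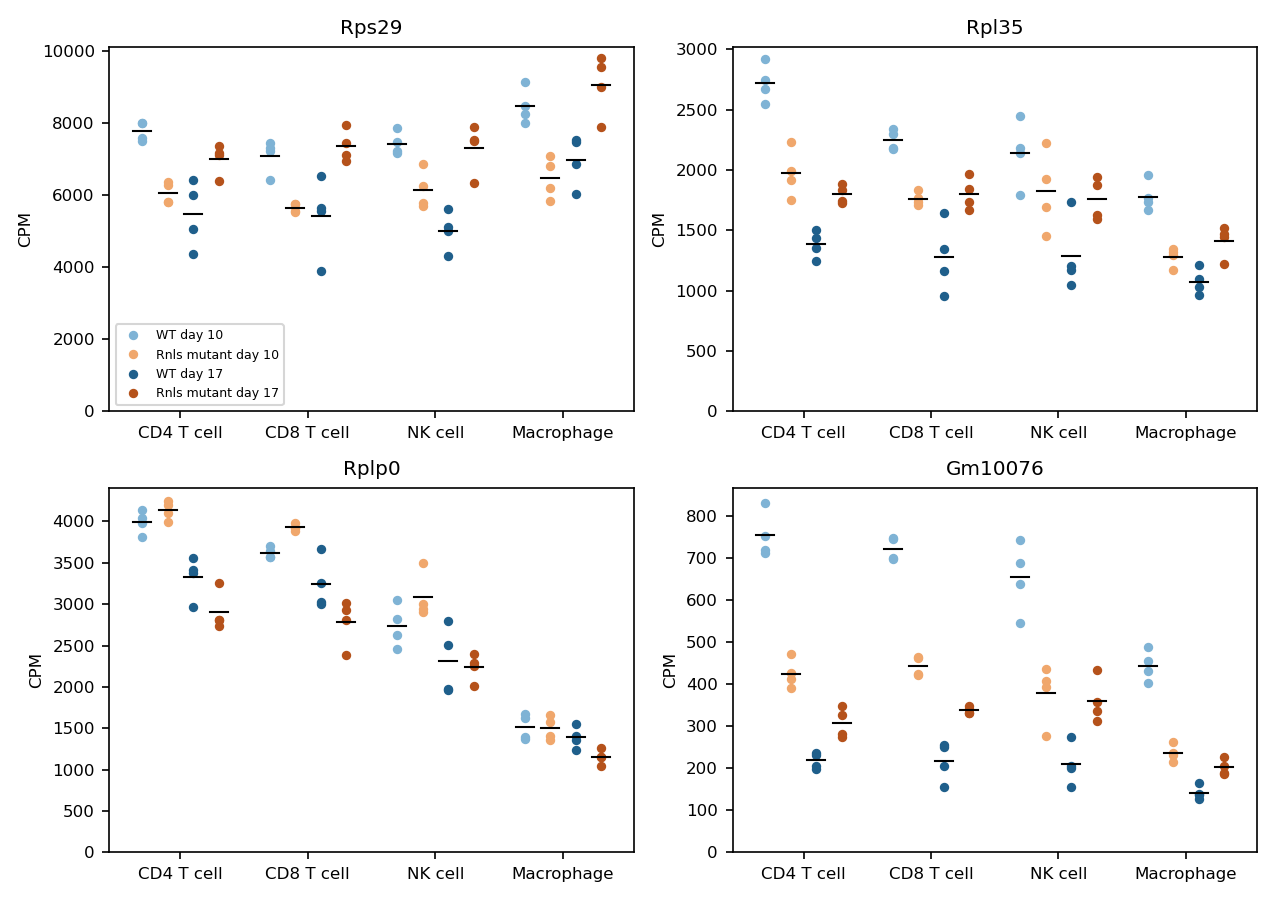
CPM of Rps29, Rpl35, Rplp0 and Gm10076 (vertical axes, from 0) in CD4 T cells, CD8 T cells, NK cells and macrophages (horizontal axes). Points are grafts, colors mark the 4 groups and black bars the means. In macrophages Rps29 has means of 8452 and 6475 at day 10 and 6970 and 9051 at day 17 in WT and Rnls mutant grafts, and the other 3 types show the same order of genotypes.

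The genotype values of members went with the length of the protein they encode, a property the choice by name did not use. Of the tested members, 11 encode fewer than 100 residues in GENCODE M21, among them Rps29 (56 residues), Rps28 (69), Rpl38 (70), Rpl41 (25) and Rpl39 (51). Their median log2 fold change by genotype was -0.12 at day 10 and 0.15 at day 17, against -0.00 and -0.01 in the 68 longer members. The median interaction was 0.24 against -0.01. Across the 79 tested members, Spearman's rho between residues and log2 fold change was 0.505 at day 10, -0.558 at day 17 and -0.589 for the interaction, and without Rps29 and Rpl35 it was 0.481, -0.539 and -0.572. For the days it was 0.0489 in WT grafts and -0.489 in Rnls mutant grafts. Rpl41 and Rpl39, among the shortest members, had interactions of 0.13 and 0.02, while Rpl35 with 123 residues had the same value as Rps29. Rpl39l (51 residues), with 138 UMIs in all cells, also enters these medians and correlations and was at 0.63 by genotype at day 10. The lowest interaction among the 11 short members was -0.68. These correlations are across genes of 4 libraries and have no test.

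**Figure D5:**
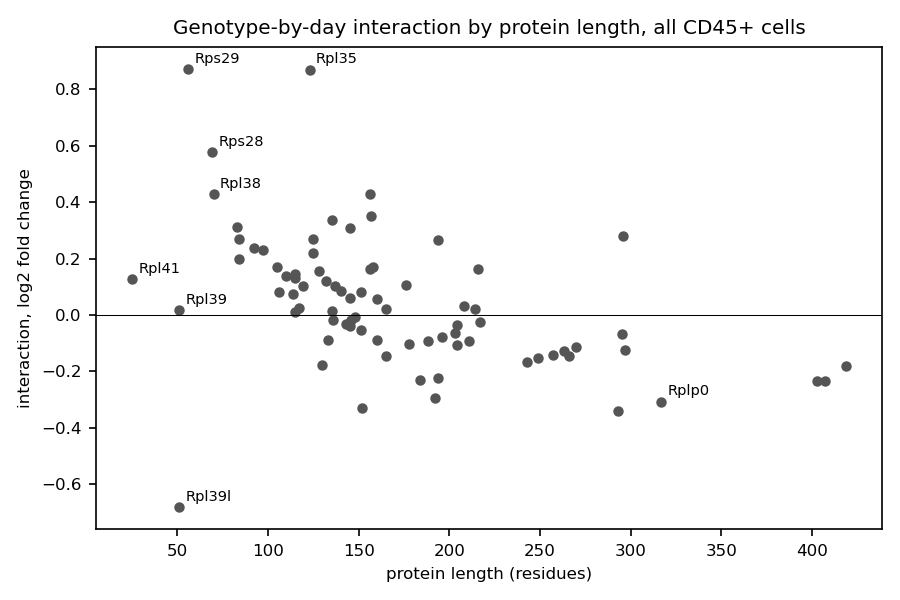
Interaction of genotype and day on the log2 scale (vertical axis) against protein length in residues (horizontal axis) for the 79 tested ribosomal protein genes in all CD45+ cells. Each point is 1 gene. Rps29 and Rpl35 are highest at 0.87, Rps28 (0.58) and Rpl38 (0.43) follow among the short proteins, and Rplp0 with 317 residues is at -0.31. The lowest point, also among the short proteins, is at -0.68.

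Many genes that work with the ribosome were also lower at day 17 in all CD45+ cells, where 17.5% of all genes were lower in WT and 22.4% in Rnls mutant grafts. Of the ribosomal protein genes that the naming rule leaves out, Rpl36al fell by 0.50 on the log2 scale in WT and by 0.47 in Rnls mutant grafts, Fau, made as a fusion with a ubiquitin-like protein, by 0.36 and 0.23, and Rpl7l1 by 0.48 and 0.83. Of 15 translation factors and related genes whose mRNAs also carry a TOP motif, 11 fell and 1 rose in WT grafts and 12 fell and 1 rose in Rnls mutant grafts. Examples are Nap1l1, a histone chaperone (-0.87 and -0.47), Naca and Btf3, which form the nascent chain complex (-0.54 and -0.48, -0.46 and -0.58), the elongation factor Eef1g (-0.39 and -0.63) and the initiation factor Eif3h (-0.37 and -0.58). Eif4b, named after its values were seen, rose by 0.34 and 0.27.

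In all CD45+ cells, ribosome biogenesis genes were lower for 9 of 16 in WT and 10 of 16 in Rnls mutant grafts, with 0 higher. Nucleolin (Ncl) was at -0.92 and -0.76, Nop56 of the box C/D particles at -0.92 and -1.08, Dkc1 of the box H/ACA particles at -1.30 and -1.39, Ebna1bp2 at -0.53 and -0.98 and Rrs1 at -0.56 and -1.13. Of 78 mitochondrial ribosomal protein genes, 58 fell in WT and 51 in Rnls mutant grafts and 0 rose. Their median log2 fold changes of -0.50 and -0.47 were near those of the cytosolic members. Mrps6 (-1.06 and -1.47), Mrps16 (-0.85 and -0.70), Mrpl32 (-0.68 and -0.72) and Mrpl21 (-0.59 and -0.83) had the smallest adjusted p in 1 or both genotypes.

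In macrophages, where the cytosolic members had 18 and 16 of 77 lower, the mitochondrial ribosomal proteins had 38 and 59 of 77 lower, with medians of -0.44 and -0.60. The shares of all genes lower in WT and Rnls mutant grafts were 13.1% and 21.4% in macrophages. They were 10.1% and 10.4% in CD4 T cells and 6.32% and 4.56% in CD8 T cells. In NK cells 1 of 20 tested was lower in each genotype, where 4.87% and 1.2% of all genes were. Ribosome biogenesis genes were lower for 2 and 1 of 14 in CD4 T cells and 1 and 1 of 12 in CD8 T cells. In NK cells 2 and 0 of 8 were lower, and in macrophages 1 and 3 of 15, with 1 and 2 higher. Of the 15 translation factors and related genes, 7 and 11 were lower in CD4 T cells and 3 and 5 in CD8 T cells. In NK cells 0 and 1 were lower, and in macrophages 3 and 3, with 1 and 2 higher. None of the translation factor, biogenesis or mitochondrial ribosomal protein genes of these lists was called by genotype in all CD45+ cells, CD4 T cells, CD8 T cells, NK cells or macrophages. Of the 4 tested rows named as ribosomal protein pseudogenes or Gm10076, 3 fell in each genotype, and Gm10076 was the one called by genotype.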

How the data were processed

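Per the labels and the study's methods, 4 droplet libraries (10x 3′ chemistry), 1 per genotype and day, were made from hashed CD45+ cells. The submitters' processing notes name Cell Ranger and mm10, and versions were not given in the sources used here. The table deposited by the authors holds unnormalized counts (UMIs) for each gene in every cell, and its metadata give graft, cell type and cluster. Every cell had at least 1001 UMIs and at most 9.74% mitochondrial UMIs, and no doublet caller was run here.

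UMIs were summed per graft over all cells or over a type (at least 10 cells) and tested with edgeR 4.0.16 (filterByExpr, TMM, quasi-likelihood, 1 fit over the 4 groups) in R 4.3.3, with Benjamini-Hochberg adjustment over all genes tested. Nothing states that grafts of a group came from separate cultures of NIT-1 cells. Scripts ran in Python 3.11.15 and were tested on simulated data. Alternatives were DESeq2 1.42.0, other scalings, no filter, a hashtag block, the 2 groups alone, the 6% of cells with the most UMIs left out, at least 20 cells, and each graft left out.

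Members, lists and tests were chosen with earlier results of these data known. At most 5 members per direction and comparison were named, those called in the most of 5 fits, plus the 3 most and 3 least different between types, the restricted paralogs and up to 3 genes per list. Protein lengths came from GENCODE M21 coding sequences in place of RefSeq. Percents of UMIs were described without a test, and intervals cover no error beyond the grafts. The list of ribosomal protein genes outside the naming rule is not reported here in full.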

Additional observations from a re-analysis of the deposited data

Results flagged for a closer look

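In 93 groups of 4 grafts, 7 held a graft whose distance to its nearest neighbor was large for the range of the group by Dixon's criterion, and chance flags about 1 in 20 groups. For the percent of UMIs from ribosomal protein genes these were graft 3 of CD8 T cells in Rnls mutant day 10 (22.98%), graft 4 of NK cells in WT day 17 (19.5%) and graft 4 of macrophages in WT day 10 (13.8%), each the highest of its group. For single genes in all CD45+ cells they were Rpl15 in Rnls mutant day 10 graft 2 (1686 CPM), Rpl6 in WT day 10 graft 2 (3184), Rps21 in Rnls mutant day 17 graft 3 (2813) and Rps27a in WT day 10 graft 1 (3318).

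The effect of genotype differed between day 10 and day 17 by the interaction term of edgeR's quasi-likelihood test for Rpl35 (0.87) and Rps29 (0.87) in all CD45+ cells. It also differed in CD4 T cells for Rpl35 (0.92), Rps29 (0.79) and Rps28 (0.61), in CD8 T cells for Rpl35 (0.91) and Rps29 (0.84), and in NK cells for Rps29 (0.86).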

How the results depend on the processing

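Of 258 alternative values for the counts of called members and the differences in percent, 227 stayed within 1.5 times the count or within 1 SD of the percent, and of 412 for named members, 397 kept their direction and side of the threshold. With DESeq2, 3 members were called by genotype at day 10 and 3 at day 17 in all CD45+ cells (0 and 0 with edgeR), 4 had an interaction (2 with edgeR), 1 was called alike in 4 types at day 17 (0 with edgeR) and 11 in the WT day comparison (7 with edgeR). The last count was 4 with library totals, 4 with totals outside the members and 11 without the filter. In Rnls mutant grafts the count of members called alike in 4 types, 1 (Rplp0), was 0 with totals outside the members, with the replicate block and without the cells with the most UMIs. At day 10 the genotype count was 1 without those cells and 2 with the 2 groups alone. Equal weights for 4 types gave day differences of -2.22 and -1.20 percentage points. The counts under these alternatives are given without the shares of all genes called.

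Leaving out 1 graft at a time gave 0 to 2 members by genotype at day 10 (2 without WT day 17 replicate 3) and 0 to 1 at day 17 (1 without WT day 17 replicate 3 or Rnls mutant day 17 replicate 3), 61 to 71 and 53 to 65 between the days in WT and Rnls mutant grafts, and 2 to 3 for the interaction. The members called alike in 4 types numbered 5 to 12 (12 without WT day 17 replicate 4) in WT and 0 to 1 in Rnls mutant grafts (1 only without a WT day 17 replicate). The percent differences ranged from -0.560 to 0.154 and -1.09 to 0.598 by genotype at day 10 and day 17 and from -4.57 to -2.89 and -4.13 to -3.40 by day. Rps21 in all CD45+ cells of Rnls mutant grafts, at -0.02 and not called, was at 0.0242 without Rnls mutant day 10 replicate 3, 0.000401 without replicate 4 and 0.0184 without Rnls mutant day 17 replicate 3, with a range of -0.0761 to 0.0242. The causes were not tested.

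Whether hashtag numbers pair the grafts is not known. Deviations of same-numbered grafts correlated from -0.337 to 0.442, which cannot settle it. The best match had the same number for hashtag 1 at day 10 and hashtags 2 and 3 at day 17, and another number for the rest. With the number as a replicate block, 66 and 62 members were called between the days, 2 had an interaction and 0 differed by genotype. Grafts with few cells of a type limit the fits within types.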
